A study of Mus musculus with 4 samples.

Results

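The cyclin Y genes Ccny and Ccnyl1, the kinase genes Cdk14 and Cdk16 and the Wnt coreceptor genes Lrp5 and Lrp6 were measured in mouse C2C12 myoblasts, an established line of dividing muscle precursors that can be induced to form myotubes. They are 6 of the 51826 gene identifiers in the deposited table, and the set was chosen by function around Ccnyl1, selected on its higher counts with GDF10 in these same 4 libraries. The cells stayed in growth medium and received the recombinant protein GDF10, which belongs to the TGF-beta family of secreted factors, in 2 libraries, or vehicle in 2 libraries, for 6 h. The dose is not given in the labels. The series describes the libraries of a group as biological replicates.

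Cyclin Y is an atypical cyclin that is held at the plasma membrane through a lipid on its amino terminus, and cyclin Y-like 1 is its close paralog. They activate the PFTAIRE kinase CDK14 and the PCTAIRE kinase CDK16, and both kinases are named after a short helix that contacts the cyclin. LRP5 and LRP6 are single-pass receptors that bind Wnt together with a Frizzled protein. CDK14 with cyclin Y phosphorylates a serine in a PPPSP motif of the LRP6 tail, a step described as a priming of Wnt signalling around mitosis in fly, frog and human cells, and phosphorylated PPPSP motifs recruit the axin complex so that beta-catenin is spared from degradation. In mouse, cyclin Y-like 1 and CDK16 are known for their need in sperm formation.

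The coding bases of the helix are shown because they are where the kinase genes are named apart. They were read from GENCODE M21 transcripts (mm10). The stretches lie in exon 5 of Cdk14 (minus strand, chr5:5195278-5195329), exon 6 of Cdk16 (plus strand, chrX:20694695-20694746), exon 7 of Cdk17 (plus strand, chr10:93224999-93225050) and exon 6 of Cdk18 (minus strand, chr1:132119100-132119151), and capitals mark the helix codons.
Cdk14: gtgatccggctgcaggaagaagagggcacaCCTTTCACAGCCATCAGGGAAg
Cdk16: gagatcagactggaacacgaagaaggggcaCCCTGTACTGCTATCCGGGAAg
Cdk17: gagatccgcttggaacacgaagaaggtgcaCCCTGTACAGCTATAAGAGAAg
Cdk18: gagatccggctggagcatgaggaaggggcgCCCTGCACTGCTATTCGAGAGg
Over their aligned coding bases Cdk14 and Cdk16 were 62.5% identical, with no identical run above 15 bases.

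The first PPPSP motif of each coreceptor is shown because CDK14 with cyclin Y phosphorylates a serine in such a motif of LRP6. It lies in exon 22 of 23 in both genes, on the minus strand at chr6:134453594-134453647 for Lrp6 and chr19:3586427-3586480 for Lrp5, and capitals mark the 15 bases of the motif.
Lrp6: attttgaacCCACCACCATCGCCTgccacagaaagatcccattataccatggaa
Lrp5: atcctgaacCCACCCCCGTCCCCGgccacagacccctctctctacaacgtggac
The serine of the motif was codon 1490 in Lrp6 and codon 1502 in Lrp5. The coding sequences of Lrp5 and Lrp6 were 68.4% identical, and their longest identical run was 20 bases.

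For Ccnyl1 the question is which gene a read belongs to, so a stretch of 90 coding bases from exon 5 of Ccnyl1 (plus strand, chr1:64708384-64708473) is shown with the bases that differ from Ccny in capitals. Of 75 such stretches that lie in a single exon and align to Ccny without a gap, it is the one of median likeness, with 22 differences. Below it stands the same stretch of Gm16464, a processed pseudogene on the minus strand of another chromosome (chr7:104501715-104501804), where capitals mark its 2 differences from Ccnyl1.
Ccnyl1: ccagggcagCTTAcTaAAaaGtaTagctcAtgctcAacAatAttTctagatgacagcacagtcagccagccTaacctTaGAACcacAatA
Gm16464: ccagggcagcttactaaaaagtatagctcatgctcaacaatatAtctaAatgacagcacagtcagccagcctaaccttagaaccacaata
Ccnyl1 and Ccny were 70.4% identical over 1009 aligned coding bases, with no identical run above 26 bases, and shared no stretch of 50 bases. Gm16464 was 97.6% identical to the Ccnyl1 coding sequence and held 808 of the 3406 stretches of 50 bases in Ccnyl1 transcripts. The table gave Gm16464 9 and 6 counts with GDF10 and 15 and 4 with vehicle, beside 1821 and 1931 with GDF10 and 1172 and 1028 with vehicle for Ccnyl1. Ccny and Cdk16 shared no stretch of 50 bases with another gene, and Cdk14, Lrp5 and Lrp6 shared 0.206%, 0.143% and 0.758% of theirs.

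Total counts were 29944193 and 35057429 in the GDF10 libraries and 35597310 and 29641165 in the vehicle libraries, and 15467 genes were tested. Myoblast markers were present: Myod1, Myf5, Des, Itga7 and Cdh15 summed to 1926 to 1937 CPM (counts scaled to library size by TMM) with GDF10 and 1869 to 1889 with vehicle, while Pax7, a satellite cell gene, was at 0 counts in all 4 libraries. A protocol label speaks of longissimus dorsi muscle. The 6 mature fibre markers summed to 7.604 to 10.07 CPM with GDF10 and 8.46 to 9.49 with vehicle. Myh4 was at 0 counts in both GDF10 libraries and at 4 and 0 in the vehicle libraries. Ckm, the highest of the fibre markers, had 148 and 181 counts with GDF10 and 178 and 131 with vehicle. The 5 immune and blood markers summed to 7.29 to 8.80 CPM with GDF10 and 7.196 to 7.644 with vehicle (Adgre1 and Hbb-bs at 0). Nearly all of this was Hba-a1 and Cd68. Hba-a1 had 183 and 164 counts with GDF10 and 149 and 125 with vehicle, and Cd68 81 and 90 with GDF10 and 122 and 88 with vehicle. The 5 endothelial and epithelial markers summed to 0.267 to 0.574 CPM with GDF10 and 0.405 to 0.952 with vehicle (Epcam at 0). The 4 adipocyte markers summed to 17.9 to 19.3 CPM with GDF10 and 17.94 to 17.98 with vehicle (Adipoq at 0). Most of this was Pparg, at 15.2 and 16.3 CPM with GDF10 and 15.5 and 14.3 with vehicle. The 6 osteoblast and chondrocyte markers summed to 57.3 CPM with GDF10 and 60.9 to 68.2 with vehicle, nearly all Runx2 (Ibsp and Acan at 0). The 4 fibroblast markers, mostly Col1a1, summed to 1012 to 1144 CPM with GDF10 and 964 to 1060 with vehicle. The part of other cells in the results was not tested, and in bulk RNA fewer cells of a type and less RNA per cell cannot be told apart.

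Ccnyl1 (ENSMUSG00000070871; mm10 chromosome 1, 64690455 to 64725644, plus strand) had 1821 and 1931 counts with GDF10, against 1172 and 1028 with vehicle. This was 60.8 and 55.4 CPM in the GDF10 libraries and 32.8 and 34.7 CPM in the vehicle libraries. Both GDF10 libraries lay above both vehicle libraries, and the gap between the groups was wider than the spread within either. The means were 58.1 ± 3.79 CPM with GDF10 and 33.8 ± 1.36 CPM with vehicle (SD, n = 2 each), a 1.72-fold difference (log2 fold change 0.78, standard error 0.09, 95% interval 0.56 to 1.01). Counting error was 2.28% to 3.12% of each Ccnyl1 count.

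The adjusted p of Ccnyl1 in edgeR's quasi-likelihood test was 0.0409, the 24th lowest p of all genes tested. This value led to the choice of the genes and is given as a description. The same holds for the gap between the groups and the interval above, which rest on the same counts. Of the 6 genes 1 was called, beside 0.162% of all genes tested (0.084% higher and 0.0776% lower with GDF10), a count the choice itself set. Its groups did not overlap, as in 38.2% of all genes tested. Without vehicle replicate 1 the adjusted p was 0.185 and without vehicle replicate 2 it was 0.104, while the fold change stayed within 0.69 to 0.85 on the log2 scale over all alternatives.

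**Figure D1:**
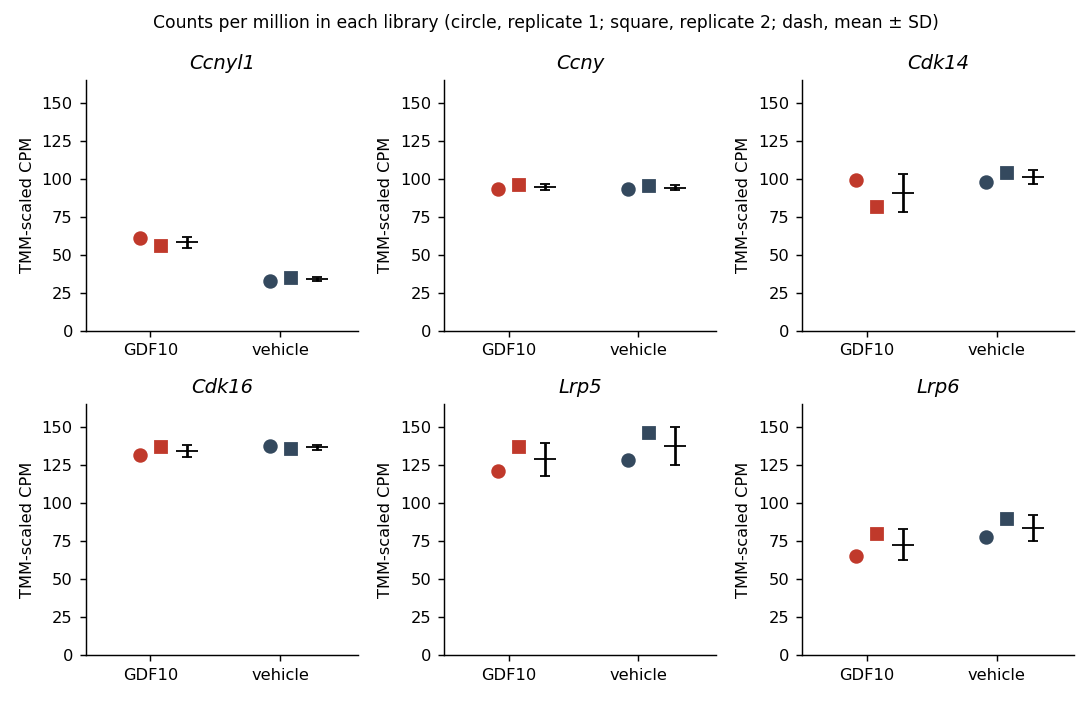
TMM-scaled CPM of the 6 genes in each library, GDF10 (red) left of vehicle (dark), with circles for replicate 1, squares for replicate 2 and a dash with bar for the mean ± SD of 2 libraries. Ccnyl1 sits at 55.4 to 60.8 CPM with GDF10 and 32.8 to 34.7 with vehicle, and the groups overlap in the other panels.

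Its paralog Ccny (ENSMUSG00000024286; chromosome 18) had 2794 and 3334 counts with GDF10 and 3327 and 2813 with vehicle. These were 93.2 and 95.6 CPM in the GDF10 libraries and 93.1 and 95.04 CPM in the vehicle libraries. The groups overlapped, and replicate 2 was the higher library in both. The fold change was 1.004 (log2 95% interval −0.17 to 0.18), which leaves room for a difference of up to 1.13-fold upward or to 0.890-fold downward.

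Set against Ccny in the same library, Ccnyl1 was at a log2 CPM ratio of −0.62 and −0.79 with GDF10, against −1.51 and −1.45 with vehicle. The difference of the mean log2 ratios was 0.78, or 1.71-fold. Per kilobase of merged exons Ccnyl1 stood at 17.6 and 16.03 CPM with GDF10 and 9.49 and 10.05 with vehicle, and Ccny at 15.3 and 15.7 with GDF10 and 15.3 and 15.6 with vehicle. Ccnyl1 thus lay above Ccny in both GDF10 libraries and below it in both vehicle libraries on this scale.

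Ccnyl1 made up 53.5% and 50.5% of the cyclin Y transcripts per exon length with GDF10, against 38.3% and 39.2% with vehicle. The means were 52.0 ± 2.08% with GDF10 and 38.8 ± 0.616% with vehicle (SD, n = 2 each), a difference of 13.2 percentage points, and 11.8 to 14.7 points without any 1 library. The summed level of both cyclin Y genes was 32.9 and 31.7 CPM per kilobase with GDF10 and 24.8 and 25.6 with vehicle, a ratio of 1.28. These ratios rest on the same Ccnyl1 counts as the call and add no support to it. With 2 libraries a group an exact two-sided permutation test cannot go below a p of 0.333, which these ratios had.

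The annotation around Ccnyl1 was also measured. The antisense gene 2810408I11Rik, which shares 205 exon bases with the 5' end of Ccnyl1, had 174 and 180 counts with GDF10 and 191 and 171 with vehicle. Its levels overlapped between groups (log2 fold change −0.02, 95% interval −0.43 to 0.39). Whether the authors counted by strand is not stated in the labels, so reads in the shared bases cannot be assigned with certainty. In a fit with counts summed over all genes that share exon bases, throughout the table, Ccnyl1 with its antisense gene had a log2 fold change of 0.69. Its adjusted p was 0.0700 in edgeR's test, a value that the other sums in that fit could also have moved. With the counts of the pseudogene Gm16464 added to Ccnyl1, an alternative chosen after seeing the data, its log2 fold change was 0.78. Its adjusted p was then 0.0414 in edgeR's test. The counts of Gm16464 were too few for this sum to move the result. The sum also cannot cover reads that match both genes, if such reads were counted for neither. The next gene downstream, Fzd5, which encodes a Wnt receptor, had 389 and 487 counts with GDF10 and 533 and 409 with vehicle (log2 fold change −0.09, 95% interval −0.39 to 0.21).

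Ccnyl1 had a GC content of 45.8% and 3456 merged exon bases. Over 3088 tested genes within 2 percentage points of that GC content the median log2 fold change was −0.03, and over 3006 genes within 20% of its exon length it was 0.03. After removal of the trend of each library with exon length the log2 fold change of Ccnyl1 was 0.76, and with the trend with GC content removed it was 0.82 (adjusted p = 0.0234 and 0.0276 in limma); both alternatives were chosen after seeing the data.

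**Figure D2:**
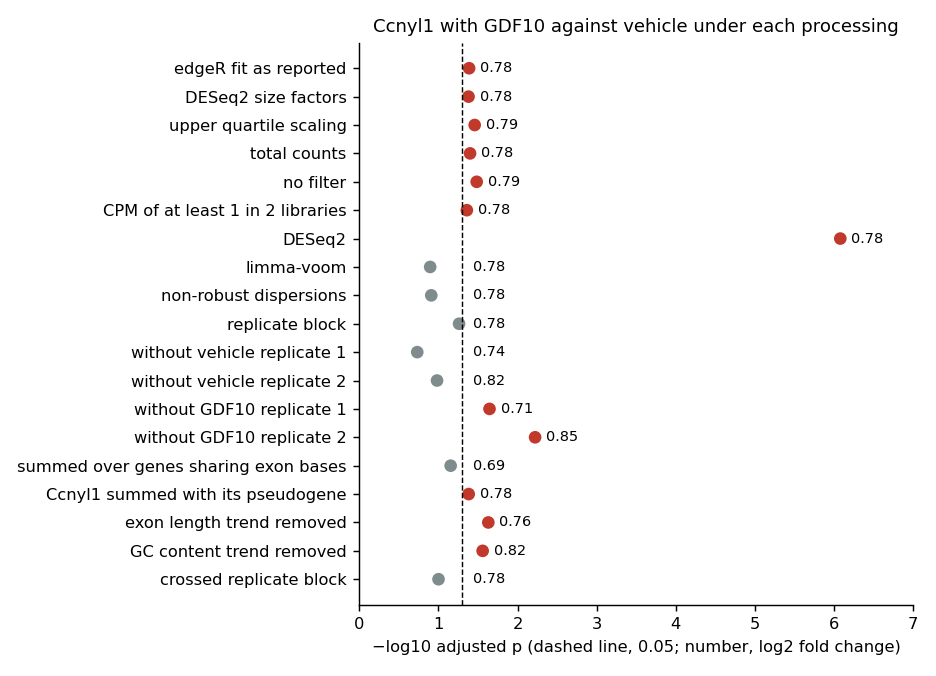
Adjusted p of Ccnyl1 on a −log10 scale (x axis, dashed line at 0.05) for the edgeR fit as reported and 18 alternatives, with the log2 fold change written beside each point. Red points pass 0.05 and grey points do not, and the fold change stays between 0.69 and 0.85 in all of them. All of them refit the counts on which Ccnyl1 was chosen.

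Among 12033 genes with a mean of at least 2 CPM, the 3 whose values over the 4 libraries ran closest to those of Ccnyl1 were Bloc1s6, Foxo6 and Wdcp. Likeness was the root mean square difference of log2 CPM after each gene's mean was taken off, and it was 0.0464, 0.0642 and 0.0716. Bloc1s6 stood at 34.7 and 31.7 CPM with GDF10 and 20.2 and 19.8 with vehicle. Foxo6, a forkhead transcription factor gene, stood at 3.40 and 3.41 CPM with GDF10 and 1.90 and 2.16 with vehicle. Of the 12033 genes, 7 came within 0.1 of Ccnyl1, against 5951 within 0.1 of Ccny, 5796 of Cdk16, 2975 of Lrp5, 1328 of Lrp6 and 944 of Cdk14. Ccnyl1 was chosen on its difference in these same values, and a gene that differs has fewer near genes than a flat one. The choice thus set these counts in large part, and they add no support to the call.

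The kinase genes did not pass the test. Cdk14 (ENSMUSG00000028926; chromosome 5, 4803391 to 5420312), the PFTAIRE kinase, had 2978 and 2843 counts with GDF10 and 3483 and 3077 with vehicle. These were 99.4 and 81.6 CPM with GDF10 and 97.5 and 104 CPM with vehicle. GDF10 replicate 2 was the lowest library, and GDF10 replicate 1 lay between the vehicle libraries. The log2 fold change was −0.16 (95% interval −0.41 to 0.10, adjusted p = 0.845 in edgeR's test), and it was −0.30 without GDF10 replicate 1 and −0.02 without GDF10 replicate 2.

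Cdk16 (ENSMUSG00000031065; chromosome X, 20687954 to 20699880), the PCTAIRE kinase, had 3937 and 4776 counts with GDF10 and 4919 and 4012 with vehicle. These were 131 and 137 CPM with GDF10 and 138 and 136 CPM with vehicle, so the groups overlapped. The log2 fold change was −0.03 (95% interval −0.19 to 0.14, adjusted p = 0.962 in edgeR's test).

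The nearest relatives of these kinases were also measured. Cdk17 stood at 53.0 and 53.4 CPM with GDF10 and 51.9 and 54.7 CPM with vehicle, and Cdk18 at 97.8 and 92.8 with GDF10 and 95.9 and 96.0 with vehicle. Their log2 fold changes were −0.0028 and −0.0092, with 95% intervals of −0.20 to 0.20 and −0.19 to 0.17. Cdk15, the second PFTAIRE kinase, was barely counted, with 48 and 47 counts with GDF10 and 32 and 38 with vehicle (log2 fold change 0.44, 95% interval −0.32 to 1.20). Cdk5, a kinase best known from neurons, was at −0.08 (95% interval −0.30 to 0.15). None of these 4 genes passed the test.

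Of the summed level of Cdk14, Cdk15, Cdk16, Cdk17 and Cdk18 per merged exon length, Cdk16 made up 46.1% and 48.6% with GDF10 and 47.9% and 46.9% with vehicle. Cdk18 made up 31.5% and 30.3% with GDF10 and 30.7% and 30.5% with vehicle. The shares of Cdk16, Cdk18, Cdk17 and Cdk14 each overlapped between the groups. Set against its kinases in the same library, Ccnyl1 was at a log2 CPM ratio to Cdk16 of −1.11 and −1.31 with GDF10 and −2.07 and −1.96 with vehicle, and to Cdk14 of −0.71 and −0.56 with GDF10 and −1.57 and −1.58 with vehicle. Both ratios stood higher in each GDF10 library than in either vehicle library. They rest on the same Ccnyl1 counts as the call and add no support to it.

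**Figure D3:**
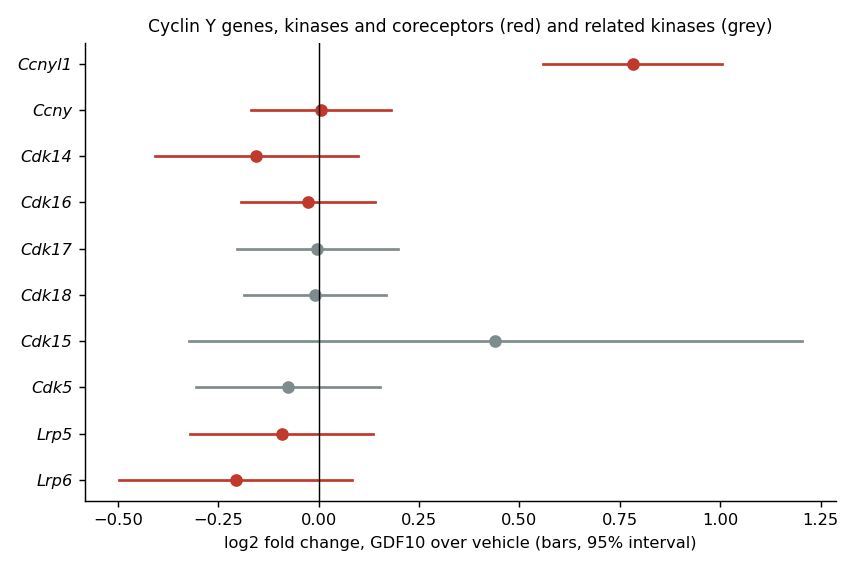
Log2 fold change of GDF10 over vehicle (points) with 95% intervals (bars) for the 6 genes (red) and 4 related kinases (grey), from the edgeR fit over all genes. The interval of Ccnyl1, which was chosen on these same counts, runs from 0.56 to 1.01, and those of the other 9 genes include 0.

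Both coreceptor genes were expressed and did not pass the test. Lrp5 (ENSMUSG00000024913; chromosome 19, 3584828 to 3686564), best known for its part in bone mass, had 3625 and 4758 counts with GDF10 and 4586 and 4324 with vehicle. These were 121 and 136 CPM with GDF10 and 128 and 146 CPM with vehicle, and the groups overlapped. The log2 fold change was −0.09 (95% interval −0.32 to 0.13, adjusted p = 0.877 in edgeR's test), and it ran from −0.18 to 0.0039 without any 1 library.

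Lrp6 (ENSMUSG00000030201; chromosome 6, 134446476 to 134566965), the coreceptor that the cyclin Y kinase is known to phosphorylate, had 1959 and 2774 counts with GDF10 and 2773 and 2653 with vehicle. These were 65.4 and 79.6 CPM with GDF10 and 77.6 and 89.6 CPM with vehicle. GDF10 replicate 1 was the lowest library and vehicle replicate 2 the highest. The log2 fold change was −0.21 (95% interval −0.50 to 0.08, adjusted p = 0.837 in edgeR's test). It was −0.07 without GDF10 replicate 1, −0.35 without GDF10 replicate 2, −0.31 without vehicle replicate 1 and −0.10 without vehicle replicate 2.

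The values of Lrp5, Lrp6 and Cdk14 have long merged exons beside them: 9738, 13672 and 18877 bases. Their longest coding transcripts were 5161, 9368 and 5145 bases, against 5757 for Ccny. Exon length here means merged exons. In GDF10 replicate 1 the 694 tested genes within 20% of the exon length of Lrp6 had a median log2 CPM 0.14 below their mean over the 4 libraries, and Lrp6 was 0.25 below its own. In vehicle replicate 2 those genes were 0.09 above, and Lrp6 0.21 above. Genes of the length of Lrp5 were 0.09 below in GDF10 replicate 1, where Lrp5 was 0.13 below. Cdk14 went the other way there, 0.06 above its mean beside a median of 0.21 below in genes of like length. In GDF10 replicate 2 Cdk14 was 0.22 below its mean, beside a median of 0.03 above in those genes. With each library's exon length trend removed, the log2 fold changes were 0.0015 for Lrp5, 0.0055 for Cdk14 and −0.08 for Lrp6. By the medians above, this removal moves the GDF10 libraries of Cdk14 further apart, and its value averages them. With the GC content trend removed instead, the log2 fold changes were −0.14 for Lrp5, −0.10 for Cdk14 and −0.17 for Lrp6. Both alternatives were chosen after seeing the data. The part of exon length or GC content in these values was not tested further.

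**Figure D4:**
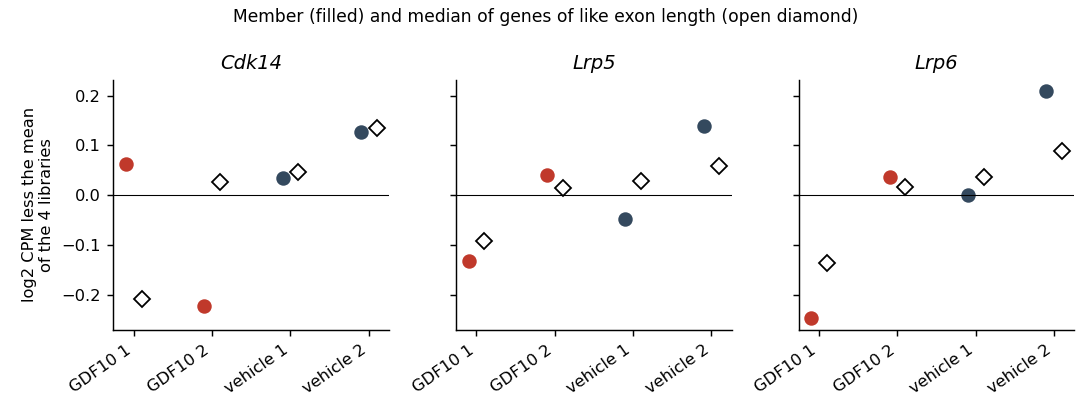
Log2 CPM less the mean of the 4 libraries (y axis) for Cdk14, Lrp5 and Lrp6, by library. Filled points are these genes (GDF10 red, vehicle dark). Open diamonds are the median of tested genes within 20% of the same merged exon length. In GDF10 replicate 1 the open diamonds lie 0.09 to 0.21 below 0. Lrp5 and Lrp6 lie below 0 with them, and Cdk14 lies above 0.

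Lrp5 made up 72.2% and 70.7% of the LRP5/6 transcripts per exon length with GDF10 and 69.9% and 69.6% with vehicle. The GDF10 libraries were the higher ones, by a mean of 1.69 percentage points, beside an SD of 1.09 points among the GDF10 libraries. Genes of the merged exon length of Lrp6 had a median log2 fold change of −0.12, and those of the length of Lrp5 −0.08. The part of exon length in this share was not tested. The exact two-sided permutation p was 0.333, the smallest this design allows.

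Per kilobase of merged exons, the order of the levels in the GDF10 libraries was Cdk16 at 30.7 ± 0.913 CPM, Ccnyl1 at 16.8 ± 1.10, Ccny at 15.5 ± 0.281, Lrp5 at 13.2 ± 1.13, Lrp6 at 5.301 ± 0.735 and Cdk14 at 4.79 ± 0.667 (SD, n = 2). In the vehicle libraries it was Cdk16 at 31.2 ± 0.346 CPM, Ccny at 15.4 ± 0.222, Lrp5 at 14.1 ± 1.29, Ccnyl1 at 9.77 ± 0.394, Lrp6 at 6.12 ± 0.621 and Cdk14 at 5.34 ± 0.242 (SD, n = 2). Ccnyl1 stood next after Cdk16 with GDF10, and below Ccny and Lrp5 with vehicle. Of neighbours in these orders, Lrp6 and Cdk14 overlapped in the GDF10 libraries, and no others did. Over all 4 libraries the range of Ccnyl1, 9.49 to 17.6 CPM, took in the whole range of Ccny, 15.3 to 15.7, and of Lrp5, 12.4 to 15.002.

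The order depended on the length used. The merged exons of Cdk14 were 18877 bases and its longest coding transcript 5145, against 9738 and 5161 for Lrp5 and 6095 and 5757 for Ccny. Per kilobase of the longest coding transcript and over all 4 libraries, Cdk16 was at 41.4 ± 0.868 CPM, Lrp5 at 25.8 ± 2.09, Cdk14 at 18.6 ± 1.89, Ccny at 16.4 ± 0.222 and Lrp6 at 8.33 ± 1.06 (SD, n = 4). Ccnyl1 was at 18.5 and 16.9 CPM with GDF10 and 9.999 and 10.59 with vehicle. On that scale Ccnyl1 made up 53.3% and 50.4% of the cyclin Y transcripts with GDF10 and 38.2% and 39.1% with vehicle.

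Over the 6 genes the median log2 fold change was −0.06, beside 0.0029 over all genes tested. Over the 5 genes other than Ccnyl1 none had an unadjusted p under 0.05 in edgeR's test, which 5.94% of all genes tested had (2.44% higher and 3.49% lower with GDF10), and the lowest adjusted p was 0.837. DESeq2 and limma-voom called none of those 5 genes either. Under edgeR alternatives Lrp6 had an unadjusted p of 0.0222 with the replicate block and 0.0110 without GDF10 replicate 2, and Cdk14 one of 0.00696 without GDF10 replicate 1, with adjusted p of 0.527, 0.184 and 0.406.

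The rest of the Wnt receptor pathway and related families were taken as 8 lists of 101 genes, chosen with earlier results of these data known. Of these, 81 were tested and 0 passed an adjusted p of 0.05 in either direction, beside 0.162% of all genes tested. At that share 0 calls are no result about lists of this size, and this holds for each list below. At an unadjusted p under 0.05 in edgeR's test 3 were higher and 2 lower, beside 2.44% and 3.49% of all genes tested. The median log2 fold change of the 81 was −0.0028. In 16 genes the GDF10 libraries lay above the vehicle libraries and in 13 below, beside 18.8% and 19.4% of all genes tested.

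Of 10 frizzled receptor genes 9 were tested and 0 passed. Fzd4 and Fzd3 had the lowest p, with log2 fold changes of −0.39 (95% interval −0.90 to 0.13) and −0.26 (−0.63 to 0.11). Among 15 signalosome genes and LRP6 kinases 0 passed. Mesd, the chaperone that LRP5 and LRP6 need to reach the cell surface, was at 121 and 119 CPM with GDF10 and 104 and 103 CPM with vehicle, so that both GDF10 libraries were the higher ones. Its log2 fold change was 0.22 (95% interval 0.05 to 0.39), and edgeR's test gave an adjusted p of 0.815 (unadjusted 0.0180). Amer1, which encodes an APC-binding membrane protein, was at −0.21 (−0.47 to 0.04).

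Of 18 destruction complex and nuclear genes 0 passed. Apc2, a relative of the tumour suppressor APC, was at 9.11 and 8.84 CPM with GDF10 and 12.3 and 12.6 CPM with vehicle, below vehicle in both libraries. Its log2 fold change was −0.47 (95% interval −0.79 to −0.16), and edgeR's test gave an adjusted p of 0.748 (unadjusted 0.00920), while Tle1, a corepressor gene, was at −0.14. Among 21 inhibitors, R-spondin receptors and their ligases and ligands 9 were tested and 0 passed. Dkk1, the secreted LRP5/6 inhibitor, and Rnf43 had 0 counts in all 4 libraries. Dkk2 had 31 and 29 counts with GDF10 and 71 and 41 with vehicle (log2 fold change −0.86, unadjusted p = 0.0339, adjusted p = 0.825 in edgeR's test), and Sfrp2, a secreted Wnt antagonist gene, had a log2 fold change of 0.19.

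Among 12 beta-catenin target genes 8 were tested and 0 passed. Axin2, the feedback target read most often as a sign of Wnt signalling, was low, with 69 and 65 counts with GDF10 and 74 and 60 with vehicle (log2 fold change 0.02, 95% interval −0.56 to 0.60). Nkd2, a dishevelled antagonist gene, and Ccn4, a secreted matricellular protein gene, had log2 fold changes of 0.32 (−0.13 to 0.77) and −0.09 (−0.25 to 0.08).

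Of 11 other LDL receptor family genes 8 were tested and 0 passed, and the lowest p were those of Lrp11 (log2 fold change 0.42, edgeR adjusted p = 0.825, unadjusted 0.0337) and Lrp12 (−0.10). All 10 mitotic cyclin and kinase genes were tested and 0 passed. The mitotic kinase gene Aurkb was at 0.28 on the log2 scale (edgeR adjusted p = 0.825, unadjusted 0.0319) and Plk1 at 0.23 (95% interval −0.24 to 0.71). In 2 genes 1 vehicle library stood apart: Pygo2 had 3412 and 3606 counts with GDF10 and 779 and 3032 with vehicle, and Csnk1g1 had 996 and 1059 with GDF10 and 1042 and 320 with vehicle. In other genes GDF10 replicate 1 stood apart. Apc, for example, had 922 and 1931 counts with GDF10 and 2136 and 1854 with vehicle. Lrp8 had 560 and 1053 with GDF10 and 1008 and 831 with vehicle. These genes were named after their values were seen.

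**Figure D5:**
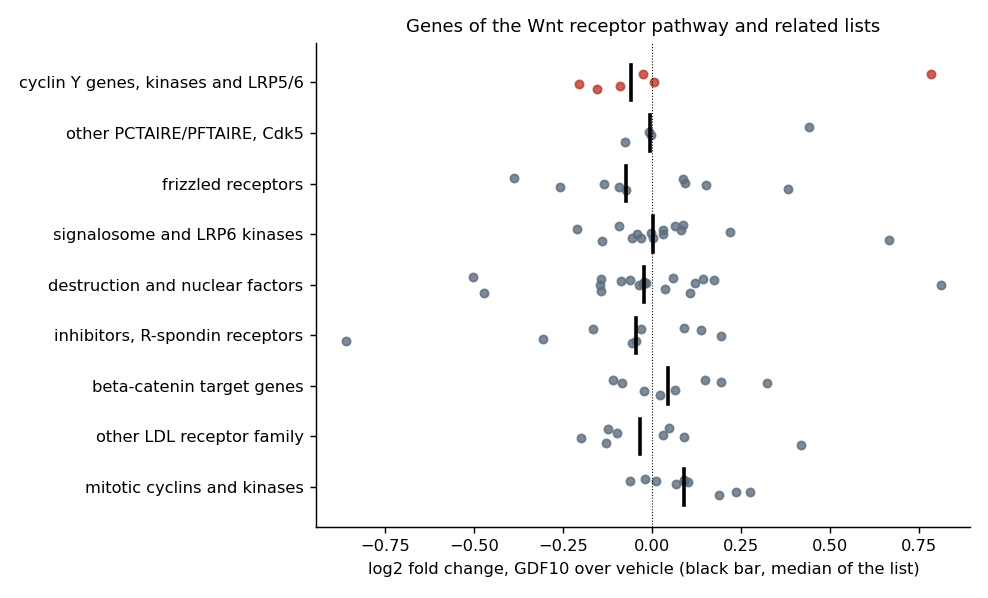
Log2 fold change of GDF10 over vehicle for each tested gene (points) of the 6 genes described here (red) and of 8 related lists (grey), with the median of each list as a black bar. Medians run from −0.07 for the frizzled receptors to 0.09 for the mitotic genes, and the rightmost red point is Ccnyl1 at 0.78.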

How the data were processed

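RNA sequencing covered 4 C2C12 libraries; the columns headed Con were taken as vehicle, the only controls. Values in the deposited file are raw counts of reads per gene, which the authors did not normalize. The submitters' processing notes name build mm10 and, in no stated role, DESeq2 1.12.4, StringTie 1.3.3b, bedtools 2.26.0, HISAT2 2.0, Trimmomatic 0.36 and FastQC 0.11.2. How reads were assigned to genes, with which annotation and strand setting, is not stated there. Symbols, positions and exon lengths came from GENCODE M21, which held 51633 of 51826 identifiers.

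The test was edgeR 4.0.16 in R 4.3.3: filterByExpr, TMM, robust dispersions, glmQLFit and glmQLFTest without covariates, and Benjamini-Hochberg values over 15467 genes with a threshold of 0.05. Alternatives used DESeq2 1.42.0, limma 3.58.1, other scalings and filters, a replicate block, and each library left out. The tests were also run on simulated counts, drawn independently for each gene without a trend with exon length or a library standing apart. No result here rests on that run. A count of 3 was 0.0843 to 0.101 CPM. Intervals come from the edgeR fit, which draws the dispersion of each gene towards a trend over all genes tested. They therefore do not measure the spread of a single gene alone, and they cover no variation beyond these 4 libraries.

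The genes, lists and tests were chosen with earlier results of these data known. Named genes were the 6, those sharing exon bases with them, the 2 genes with the smallest p of every list, Cdk5, Cdk15, Cdk17, Cdk18, Fzd5 and Axin2, and the 3 genes nearest to Ccnyl1 in pattern; Gm16464 and exceptions marked in the text were added after values were seen. Sequences of 50 bases were searched in all GENCODE M21 transcripts on both strands.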

Additional observations from a re-analysis of the deposited data

How the results depend on the processing

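The count of called genes over the whole table was 25, and it was 56 with DESeq2, 11 with limma-voom, 9 with non-robust dispersions, 13 with counts summed over genes sharing exon bases, and 27 to 224 without any 1 library. The log2 fold change of Ccnyl1 stayed positive in all 18 alternatives (0.69 to 0.85) and passed 0.05 in 11, with adjusted p from 8.35e-07 to 0.185. It did not pass with limma-voom (0.78, adjusted p = 0.127), non-robust dispersions (0.78, 0.123) or counts summed over all genes sharing exon bases (0.69, 0.0700). Nor did it pass without vehicle replicate 1 or vehicle replicate 2, and without any 1 library the fold change was 0.71 to 0.85. All alternatives refit the counts on which Ccnyl1 was chosen, so its steady sign and size add no support to the call. The passes with the pseudogene sum and with either trend removed came from alternatives chosen after seeing the data. The replicate numbers were not shown to pair the libraries: deviations of the replicates numbered 1 correlated at 0.0696 across genes. With the replicate block Ccnyl1 was at 0.78 (adjusted p = 0.0548), and with crossed numbers, chosen after seeing the data, at 0.78 (0.0996); the block changed no other call among the 6 genes. Signs turned only near 0: Ccny was at −0.0092 without vehicle replicate 1 and −0.012 without GDF10 replicate 2 (range −0.012 to 0.024 without any 1 library), Cdk16 at 0.0039 without GDF10 replicate 1 (range −0.056 to 0.0039), and Lrp5 at 0.0039 without vehicle replicate 2 (range −0.18 to 0.0039). With the exon length trend removed Lrp5 was at 0.0015 and Cdk14 at 0.0055. Lrp6 kept its sign in all 18 alternatives (−0.35 to −0.071). The causes were not tested. Axin2, Cdk15 and Dkk2 had under 100 counts in each library, and their intervals are wide.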
